A study of Mus musculus with 12 samples.

Results

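The 10 genes described here are members of the circadian clock and its output arm, measured in the mouse heart after cardiomyocyte deletion of Cyb5r3. They were the activators Arntl and Clock, the repressors Per1, Per2, Per3 and Ciart, the nuclear receptors Nr1d1 and Nr1d2, and the output factors Dbp and Tef. They were chosen by name, and all 10 were found among the 53700 genes of the count table and among the 17847 that passed a filter on low counts.

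The clock is a feedback loop of transcription. CLOCK and ARNTL (also called BMAL1) bind E-boxes and switch on the Per, Cry, Nr1d and Dbp genes, and the PER and CRY proteins then shut their activators off. NR1D1 and NR1D2 (REV-ERBα and REV-ERBβ) repress Arntl through sites called ROREs, while DBP and TEF act on D-boxes. In the heart this loop runs within cardiomyocytes and other cells, so that Arntl and Dbp peak at opposite times of day.

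Gene expression was measured by RNA-Seq in whole hearts, 6 from ac-WT and 6 from ac-CYB5R3–KO mice. All mice were male, carried Myh6-CreERT2, in which a cardiomyocyte promoter drives a Cre recombinase that tamoxifen activates, and were 10 to 13 weeks old when a course of tamoxifen began (33 mg/kg/d, 5 days). The Cyb5r3 alleles were CYB5R3wt/wt in ac-WT mice and CYB5R3fl/fl in ac-CYB5R3–KO mice, and the line had been backcrossed for 3 generations to C57BL/6J. Hearts were taken 5 days after treatment, and cells other than cardiomyocytes kept Cyb5r3 in both groups. The hour of collection is not given in the sources used here.

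Between 43393183 and 53754284 reads were counted per heart. TMM scaling factors, which correct for the share of reads that a few abundant genes take, were 0.570 and 0.723 in ac-WT mice 2 and 3 and between 0.988 and 1.22 in the other hearts. These 2 hearts stood apart, and values without them are given for many, though not all, of the results that they move. Cyb5r3 itself was at 126 ± 38.4 CPM (read counts scaled to library size with TMM factors, mean ± SD, n = 6) in ac-WT and 53.7 ± 9.07 CPM in ac-CYB5R3–KO hearts, with no overlap and a log2 fold change of -1.22 (edgeR adjusted p = 0.0450). The adjusted p was 0.09999 with the replicate number as a block, 0.315 with total counts and 1.39e-06 with DESeq2. It ran from 0.0305 to 0.136 when a mouse was left out, above 0.05 without ac-WT mouse 3 or 5 or ac-CYB5R3–KO mouse 1, 2, 3, 4 or 5. The log2 fold change of Cyb5r3 was between -1.41 and -1.03 under all of these settings. The cardiomyocyte markers Myh6, Tnnt2 and Actc1 were abundant in every heart. In bulk tissue, fewer cells of a type and less RNA per cell cannot be told apart.

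The promoters of the members were read from RefSeq (GRCm38.p6) as windows of 250 bases before and 50 after each annotated start. Windows were found for 9 of the 10 members (14 windows), and Per2 had none. E-boxes were searched as CACGTG, E-prime boxes as CACGTT, D-boxes as TTATGCAA, TTATGTAA or TTACGTAA, and ROREs as TAGGTCA or TGGGTCA, on both strands. Of all 32851 windows, 7.15% held the E-box, 4.68% the E-prime box, 1.78% a D-box and 6.45% a RORE. E-boxes stood in the windows of Ciart, Per1 and Tef, the E-prime box in that of Nr1d1, D-boxes in those of Per3 and Per1, and a RORE in that of Arntl. The cAMP response element TGACGTCA, found in 1.79% of all windows, was in none of the members' windows. A match describes these letters and is not evidence of binding.

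The longer windows are shown because they hold the members' densest sets of boxes, each written from 250 bases before the start up to the start, with E-boxes and D-boxes in capitals. Ciart (chr3:95882229-95882478, minus strand) held E-boxes that begin 116, 58 and 44 bases before the start. Per3 (chr4:151044666-151044915, minus strand) held D-boxes 205 and 158 bases before it, and Per1 (chr11:69098699-69098948, plus strand) held an E-box at 166 and a D-box at 24 bases before it.
Ciart: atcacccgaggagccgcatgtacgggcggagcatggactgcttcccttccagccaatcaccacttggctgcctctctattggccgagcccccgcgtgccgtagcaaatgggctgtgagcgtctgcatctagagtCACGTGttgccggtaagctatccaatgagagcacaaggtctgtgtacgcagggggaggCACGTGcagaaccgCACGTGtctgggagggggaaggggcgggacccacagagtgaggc
Per3: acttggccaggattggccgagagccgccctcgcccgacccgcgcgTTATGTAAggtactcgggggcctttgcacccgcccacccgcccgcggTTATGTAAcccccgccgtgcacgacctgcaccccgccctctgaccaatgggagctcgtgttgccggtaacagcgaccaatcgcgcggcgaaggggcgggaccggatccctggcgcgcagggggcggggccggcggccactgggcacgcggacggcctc
Per1: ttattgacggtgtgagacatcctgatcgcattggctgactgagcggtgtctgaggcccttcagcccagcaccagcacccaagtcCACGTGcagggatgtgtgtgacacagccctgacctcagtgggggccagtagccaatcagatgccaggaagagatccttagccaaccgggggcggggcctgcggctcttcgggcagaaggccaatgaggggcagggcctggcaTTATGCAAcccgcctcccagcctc

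Shorter windows of 30 bases are shown for the activator Arntl, the receptor Nr1d1, the output factor Tef and the repressor Nfil3, which is described further on. The capitals mark the RORE of Arntl (chr7:113207529-113207558, plus strand), which begins 30 bases after the start, the E-prime box of Nr1d1 (chr11:98775388-98775417, minus strand), 28 bases before it, and the RORE of Nfil3 (chr13:52981034-52981063, minus strand), 12 bases before it. Tef had an E-box in each of 2 windows, one at chr15:81802534-81802563 and the other at chr15:81811264-81811293, both on the plus strand. The boxes of Nr1d1 and Nfil3 lie on the opposite strand and are therefore written as their reverse complements.
Arntl: gaaggcagaaagTAGGTCAgggacggaggt
Nr1d1: cgcacagatctcAACGTGccggctgctgga
Tef, start 1: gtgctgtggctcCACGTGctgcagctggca
Tef, start 2: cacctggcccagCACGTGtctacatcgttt
Nfil3: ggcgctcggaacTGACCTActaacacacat

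The members differed widely in level. Per kilobase of exon (GENCODE M1 lengths), the ac-WT hearts held 8.32 ± 2.19 CPM per kb of Nr1d2, 7.999 ± 1.80 of Nr1d1, 7.27 ± 1.34 of Per1 and 6.55 ± 2.64 of Tef (SD, n = 6). Dbp followed at 4.197 ± 2.12, Arntl at 3.21 ± 1.33 and Clock at 2.54 ± 0.244 CPM per kb. Per2 was at 1.33 ± 0.603, Ciart at 0.920 ± 0.537 and Per3 at 0.768 ± 0.373 CPM per kb. In this order of levels the ranges of all neighbouring genes overlapped in ac-WT hearts. In ac-CYB5R3–KO hearts Clock (at least 2.47 CPM per kb) and Per2 (at most 1.89) did not overlap, and Nr1d1 (8.57 ± 1.52) came ahead of Nr1d2 (8.13 ± 1.73), Tef of Per1 and Per3 of Ciart. On the mm9 assembly, Arntl lies at chr7:120350979-120457636, Clock at chr5:76639992-76733817, Dbp at chr7:52960458-52965525 and Nr1d1 at chr11:98629246-98636647. By that annotation 491 exonic bases of Dbp are shared with Sphk2 and 263 of Nr1d1 with Thra, both on the opposite strand, so reads there could be counted for either gene if strand was not used.

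Deletion of Cyb5r3 left the clock genes without a detectable shift between the groups. None of the 10 passed an adjusted p under 0.05 in edgeR, where 0.101% of all tested genes did, and none passed an unadjusted p under 0.01, where 4.59% of all genes did. At an unadjusted p under 0.05, which 14.6% of all genes passed, the count was also 0 (1 with the replicate block, Per1, and 1 with total counts, Clock). DESeq2 called 0 at an adjusted p under 0.05. The 2 groups overlapped in all 10 genes. Of the 10 log2 fold changes 6 were below 0 and 4 above, where 9139 of all 17847 tested genes were below 0. The median of the 10 was -0.06 against -0.01 over all genes, and the median size 0.17 against 0.18. Scaling by total counts alone put 2 below 0 and 8 above, but there the median of all genes itself moved to 0.26.

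**Figure D1:**
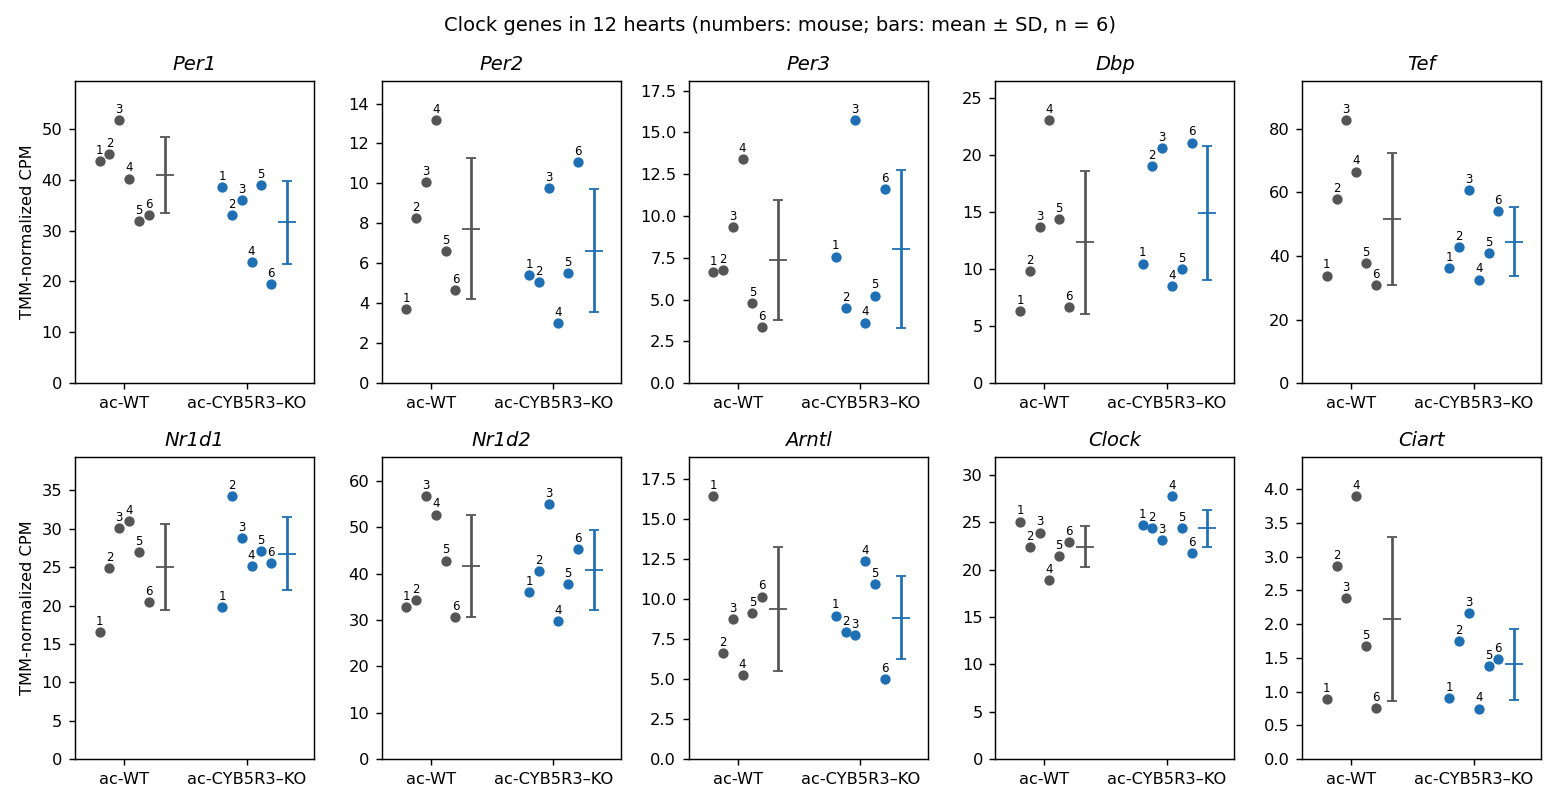
TMM-normalized CPM (vertical axis, linear from 0) of the 10 clock genes in each heart; gray points are ac-WT and blue points ac-CYB5R3–KO mice, numbered by mouse, with the mean ± SD of 6 hearts beside them. The groups overlap in every panel, and ac-WT mouse 4 and ac-CYB5R3–KO mouse 6 lie high for Per2 and Dbp and low for Arntl.

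Among the activators, Arntl, which encodes the partner of CLOCK, ran from 5.23 to 16.5 CPM (median 8.95) in ac-WT and from 4.99 to 12.4 CPM (median 8.45) in ac-CYB5R3–KO hearts. Mouse 1 was highest in ac-WT and mouse 4 in ac-CYB5R3–KO, and mice 4 and 6 of the respective groups were lowest. The means were 9.39 ± 3.90 and 8.83 ± 2.60 CPM, a log2 fold change of -0.09 (SE 0.26, 95% interval -0.66 to 0.47, edgeR adjusted p = 0.890). Leaving out a mouse in turn moved it between -0.22 and 0.14.

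Clock, the steadiest member, ran from 18.9 to 25.1 CPM (median 22.7) in ac-WT and from 21.8 to 27.8 CPM (median 24.4) in ac-CYB5R3–KO hearts. Its extremes fell in the same mice as those of Arntl, with mice 1 and 4 highest and mice 4 and 6 lowest in ac-WT and ac-CYB5R3–KO respectively. The means were 22.4 ± 2.15 and 24.4 ± 2.00 CPM (log2 fold change 0.12, SE 0.09, 95% interval -0.07 to 0.31, edgeR adjusted p = 0.551, exact permutation p = 0.143). With total counts its log2 fold change was 0.39, at an unadjusted edgeR p of 0.0371.

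Among the repressors, Per1, an E-box target that hormones and other acute signals also induce, ran from 31.8 to 51.6 CPM (median 42.0) in ac-WT and from 19.4 to 38.9 CPM (median 34.5) in ac-CYB5R3–KO hearts. The ac-WT hearts of mice 1 to 4 lay above every ac-CYB5R3–KO heart, while mice 5 and 6 lay within their range. The means were 40.9 ± 7.55 and 31.6 ± 8.17 CPM, with a log2 fold change of -0.37 (SE 0.18, 95% interval -0.76 to 0.02). This was the smallest p among the members but did not pass (edgeR unadjusted p = 0.0592, adjusted p = 0.358, exact permutation p = 0.0758). Over the alternatives the log2 fold change of Per1 stayed below 0, from -0.44 to -0.06, and the unadjusted p ranged from 0.0237, with the replicate block, to 0.764. It was between 0.0360 and 0.0407 without ac-WT mouse 5 or 6 or ac-CYB5R3–KO mouse 1 or 5.

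Per2, the rhythmic partner of the CRY proteins, ran from 3.69 to 13.2 CPM (median 7.44) in ac-WT and from 3 to 11.1 CPM (median 5.46) in ac-CYB5R3–KO hearts. Mouse 4 was highest in ac-WT, and mouse 4 was lowest in ac-CYB5R3–KO, where mouse 6 was highest. The log2 fold change was -0.22 (SE 0.34, 95% interval -0.96 to 0.51, edgeR adjusted p = 0.782). Per3, the remaining Period gene, ran from 3.36 to 13.4 CPM (median 6.70) and from 3.63 to 15.7 CPM (median 6.41), with ac-WT mouse 4 and ac-CYB5R3–KO mouse 3 on top. Its log2 fold change was 0.13 (SE 0.39, 95% interval -0.70 to 0.96, edgeR adjusted p = 0.896).

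Ciart, which encodes a repressor of CLOCK and ARNTL and was the lowest member in CPM, rested on 38 to 188 reads per heart. It ran from 0.759 to 3.90 CPM (median 2.03) in ac-WT and from 0.745 to 2.17 CPM (median 1.43) in ac-CYB5R3–KO hearts. The ac-WT hearts of mice 2, 3 and 4 lay above every ac-CYB5R3–KO heart, and mice 1 and 6 lay among the lowest of either group. Its log2 fold change of -0.56 was the largest in size among the members, with a wide interval (SE 0.39, 95% interval -1.39 to 0.28, edgeR adjusted p = 0.517, exact permutation p = 0.307). Without ac-WT mouse 4 it was -0.27, and with total counts -0.21, where Dbp was larger in size (0.55 and 0.54).

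The nuclear receptors that repress Arntl had group means that lay within the spread between hearts. Nr1d1 ran from 16.6 to 31.0 CPM (median 25.9) in ac-WT and from 19.8 to 34.3 CPM (median 26.3) in ac-CYB5R3–KO hearts, with mouse 1 lowest in each group, and a log2 fold change of 0.10 (SE 0.16, 95% interval -0.25 to 0.45, edgeR adjusted p = 0.793). Nr1d2 ran from 30.7 to 56.7 CPM (median 38.6) and from 29.8 to 55.0 CPM (median 39.2), with mouse 3 highest in each group, and a log2 fold change of -0.03 (SE 0.18, 95% interval -0.42 to 0.35, edgeR adjusted p = 0.943).

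Of the output factors, Dbp, a D-box activator driven by CLOCK and ARNTL, ran from 6.35 to 23.1 CPM (median 11.8) in ac-WT and from 8.51 to 21.1 CPM (median 14.8) in ac-CYB5R3–KO hearts. The ac-CYB5R3–KO hearts fell into mice 2, 3 and 6, at 19.0 CPM or more, and mice 1, 4 and 5, at 10.5 CPM or less. The means were 12.4 ± 6.25 and 14.97 ± 5.87 CPM, a log2 fold change of 0.28 (SE 0.33, 95% interval -0.43 to 0.99, edgeR adjusted p = 0.711). Tef, which encodes a related D-box factor, ran from 30.8 to 82.6 CPM (median 47.8) and from 32.6 to 60.7 CPM (median 41.9), with mouse 3 highest in each group. Between the groups it differed by a log2 fold change of -0.21 (SE 0.25, 95% interval -0.74 to 0.32, edgeR adjusted p = 0.705), which was 0.090 without ac-WT mice 2 and 3.

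**Figure D2:**
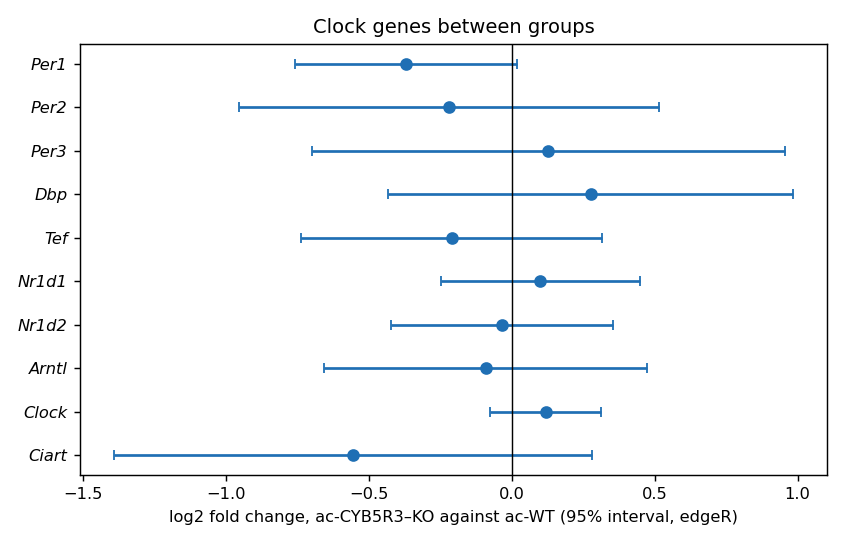
Log2 fold change of the 10 clock genes in ac-CYB5R3–KO against ac-WT hearts (horizontal axis), with 95% intervals from edgeR over 6 hearts per group; the vertical line is at 0. Every interval includes 0, from the narrow one of Clock (-0.07 to 0.31) to the wide one of Ciart (-1.39 to 0.28).

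Although the group means lay close, hearts of 1 genotype differed widely in some clock genes. The highest heart exceeded the lowest 3.999-fold in ac-WT and 4.33-fold in ac-CYB5R3–KO for Per3, 3.63-fold and 2.48-fold for Dbp, but 1.33-fold and 1.27-fold for Clock and 2.00-fold or less for Per1, Nr1d1 and Nr1d2. On the log2(CPM + 1) scale the SD of Dbp was 0.66 in ac-WT and 0.56 in ac-CYB5R3–KO hearts, larger than that of 94.5% and 98.1% of all tested genes. The SD of Per3 (0.61 and 0.72) exceeded that of 93.1% and 99.3% of genes, and the SD of Per2 (0.60 and 0.59) that of 92.7% and 98.4%. Arntl (0.51 and 0.41) exceeded 88.5% and 94.4%, Tef 91.6% and 90.0%, and Ciart 92.3% and 88.9%. The nuclear receptors were less spread, at 70.0% and 78.9% for Nr1d1 and 74.8% and 85.7% for Nr1d2. Clock stood at the other end, with an SD of 0.14 and 0.11 that exceeded only 14.3% and 25.6% of genes. Per1 exceeded 55.0% of genes in ac-WT and 94.1% in ac-CYB5R3–KO hearts, a difference that was not tested. The median SD over all genes was 0.25 in ac-WT, where mice 2 and 3 stood apart, and 0.16 in ac-CYB5R3–KO hearts.

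The same hearts were high or low for most members. Leaving Arntl and Clock aside, ac-WT mouse 4 was highest of its group in 5 of 8 members (Per2, Per3, Dbp, Nr1d1 and Ciart) and lowest in both Arntl and Clock. The reverse held for ac-WT mouse 1, which was highest in Arntl and Clock and lowest in Per2, Dbp and Nr1d1, while ac-WT mouse 6 ranked among the lowest 2 in all 8. Among ac-CYB5R3–KO hearts, mouse 3 was highest in Per3, Tef, Nr1d2 and Ciart. Mouse 4 ranked among the lowest 2 in all 8 members and was highest in Arntl and Clock, and mouse 6 was highest in Per2 and Dbp and lowest in Arntl, Clock and Per1.

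**Figure D3:**
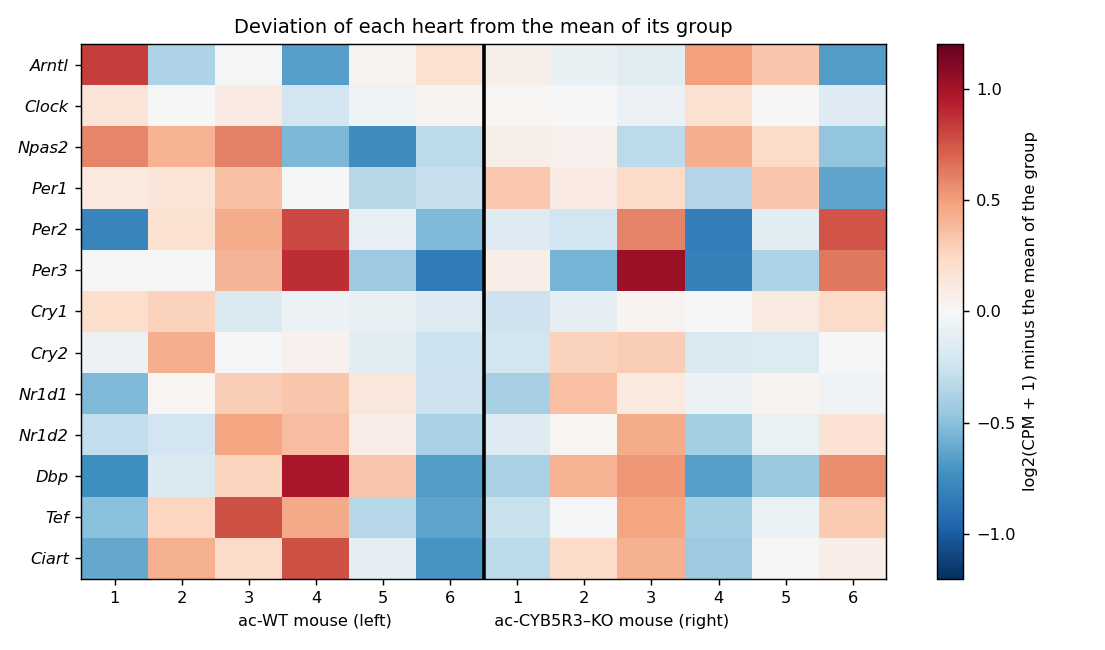
Deviation of log2(CPM + 1) from the mean of the group (colour scale from blue, below, to red, above) for clock genes in rows and hearts in columns, ac-WT mice 1 to 6 left and ac-CYB5R3–KO mice 1 to 6 right of the line. ac-WT mouse 4 and ac-CYB5R3–KO mouse 6 are blue for Arntl and red for Per2, Per3 and Dbp, and ac-WT mouse 1 and ac-CYB5R3–KO mouse 4 show the opposite for Arntl, Per2 and Dbp.

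Ratios of counts within a heart need no scaling between libraries, and they set the hearts of each group in an order. The ratio of Dbp to Arntl reads was 4.41 in ac-WT mouse 4, between 1.49 and 1.58 in mice 2, 3 and 5, 0.660 in mouse 6 and 0.386 in mouse 1. In ac-CYB5R3–KO hearts it was 4.24 in mouse 6, 2.66 in mouse 3, 2.40 in mouse 2, 1.17 in mouse 1, 0.916 in mouse 5 and 0.688 in mouse 4. Each genotype thus held hearts at both ends of the same range. As log2 ratios the means were 0.34 ± 1.21 in ac-WT and 0.72 ± 1.02 in ac-CYB5R3–KO hearts (SD, n = 6), closer to each other than the hearts within a group.

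Per2 to Arntl gave much the same order, from a ratio of 0.225 in ac-WT mouse 1 to 2.52 in ac-WT mouse 4 and from 0.242 in ac-CYB5R3–KO mouse 4 to 2.22 in ac-CYB5R3–KO mouse 6. Its mean log2 ratio was -0.31 ± 1.22 in ac-WT and -0.49 ± 1.11 in ac-CYB5R3–KO hearts. The ratio of Nr1d1 to Arntl had a mean log2 value of 1.47 ± 0.88 in ac-WT and 1.64 ± 0.56 in ac-CYB5R3–KO hearts, and Per3 to Clock one of -1.74 ± 0.77 and -1.79 ± 0.92. In Per3 to Clock, ac-WT mouse 4 (0.712) and ac-CYB5R3–KO mouse 3 (0.680) were highest and ac-WT mouse 6 (0.146) and ac-CYB5R3–KO mouse 4 (0.131) lowest.

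Correlations of the deviations from group means put these patterns over all 12 hearts. Of the 45 pairs of members, 25 passed an adjusted p under 0.05 (permutation of hearts within groups, two-sided, Benjamini-Hochberg over 45 pairs), 18 with a positive and 7 with a negative r. By Spearman's rho 24 passed. In all 25 pairs r had the same sign in ac-WT and in ac-CYB5R3–KO hearts taken alone. The points share libraries and their scaling, and the share of passing pairs among other genes was not computed.

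Per2, Per3, Dbp, Tef, Nr1d1, Nr1d2 and Ciart went up and down together. All 21 pairs among these 7 had a positive r, from 0.24 to 0.88, and 17 passed. Per2 and Tef had the highest r at 0.88 (rho 0.85, permutation p = 0.00038, adjusted p = 0.00858), and r was 0.87 without the 2 hearts farthest from the median of Per2. Per2 and Dbp had an r of 0.86 (rho 0.85, permutation p = 0.00093, adjusted p = 0.00858), and 0.75 without the 2 farthest hearts. The pairs of Nr1d1 with Per2, Per3, Tef and Nr1d2 were the 4 that did not pass.

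Arntl ran against Per2 and Dbp. With Per2 its r was -0.87 (rho -0.86, permutation p = 0.00063, adjusted p = 0.00858), at -0.89 in ac-WT and -0.86 in ac-CYB5R3–KO hearts, and -0.80 without the 2 farthest hearts. With Dbp its r was -0.81 (rho -0.90, permutation p = 0.00274, adjusted p = 0.00858), at -0.78 and -0.86 in the groups and -0.70 without the 2 farthest hearts. Clock followed Arntl (r 0.85, rho 0.81, permutation p = 0.00233, adjusted p = 0.00858; 0.77 without the 2 farthest hearts). Of the 16 pairs that join Arntl or Clock to the other 8 members, 14 had an r below 0 and 7 passed.

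These negative correlations depended on how ac-WT mice 2 and 3 were scaled. Scaled by total counts alone, 9 of the 16 pairs were below 0 and 7 above, Arntl with Per2 was at -0.52, Arntl with Dbp at -0.34 and Dbp with Clock at 0.11 in place of -0.81. Without these mice, total counts gave 14 of 16 below 0, an r of -0.86 for Arntl with Per2, -0.83 for Arntl with Dbp and -0.62 for Dbp with Clock. The positive correlation of Arntl with Clock was 0.86 under total counts, both with and without these mice.

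Per1 stood outside this pattern. Its 9 pairs had an r from -0.09 to 0.30 and a lowest adjusted permutation p of 0.376. Within ac-WT hearts alone r was 0.72 with Tef and 0.64 with Per3, against -0.09 and -0.03 in ac-CYB5R3–KO hearts. This difference was not tested. Over all hearts r was 0.30 with Tef and 0.21 with Per3, and 0.04 and 0.14 without ac-WT mice 2 and 3. In ac-WT mouse 4, the heart with the highest Dbp, Per1 was at 40.2 CPM, near the middle of its group. ac-CYB5R3–KO mouse 6, with the highest Dbp of its group, had the lowest Per1, at 19.4 CPM. Without the 2 hearts farthest from the median of Per1, its r with Tef was 0.59 and with Dbp -0.08.

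**Figure D4:**
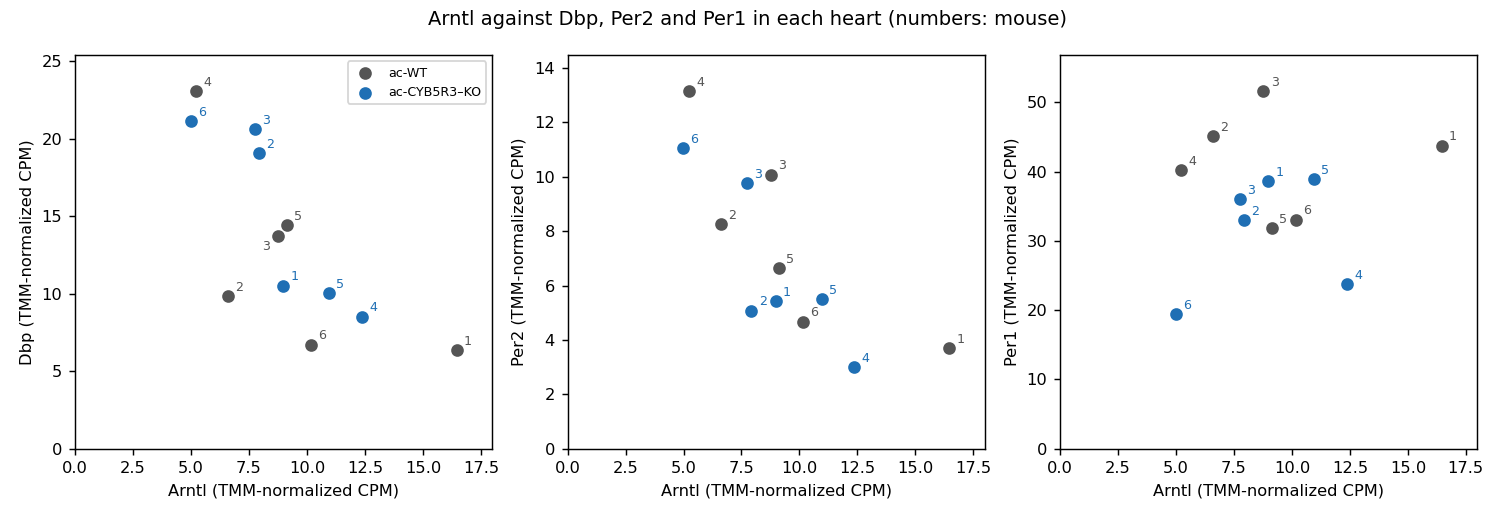
TMM-normalized CPM of Dbp, Per2 and Per1 (vertical axes) against Arntl (horizontal axes) in each of 12 hearts, gray ac-WT and blue ac-CYB5R3–KO, numbered by mouse. Dbp and Per2 fall from left to right in both groups (r of deviations from group means -0.81 and -0.87), whereas Per1 shows no such slope (r 0.20).

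**Figure D5:**
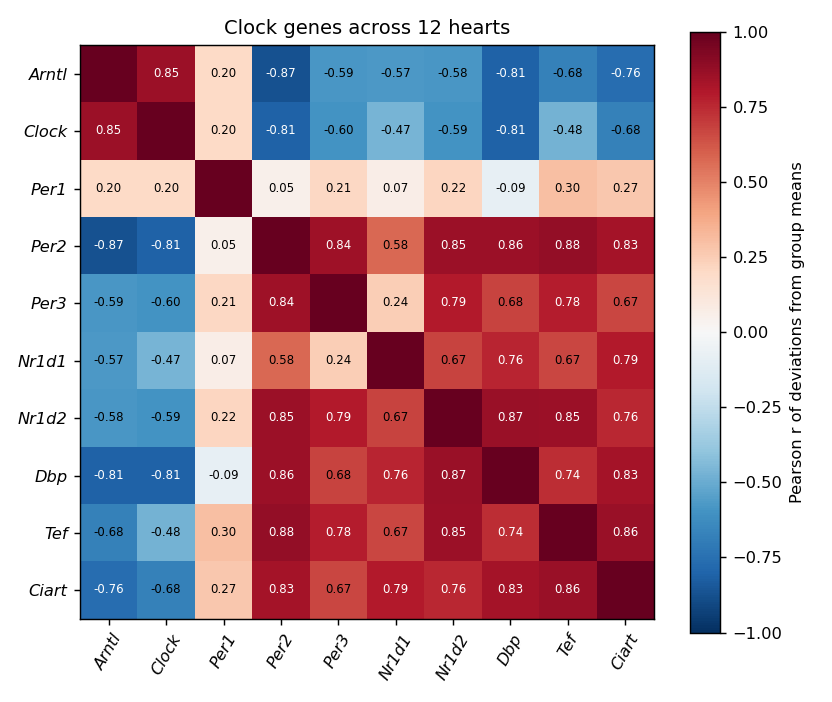
Pearson r between deviations from group means for each pair of the 10 clock genes over 12 hearts (colour scale from blue, -1, to red, 1; values printed in the cells). Per2, Per3, Nr1d1, Nr1d2, Dbp, Tef and Ciart form a red square, Arntl and Clock are blue against them, and the cells of Per1 are pale.

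Other factors of the loop were read from a list of 11 genes, all of which passed the filter. Of the 11 genes 3 had a log2 fold change below 0 and 8 above (2 and 9 with total counts), with a median of 0.083. Over all 17847 tested genes, the background for this and the further lists, 9139 were below 0. The list of 11 had 0 genes at an adjusted p under 0.05 by edgeR or DESeq2. By edgeR 2 had an unadjusted p under 0.05 (14.6% of all tested genes) and 1 an unadjusted p under 0.01 (4.59%). That gene was Nfil3, which encodes the D-box repressor that opposes DBP. It ran from 5.64 to 11.9 CPM (median 7.85) in ac-WT and from 4.14 to 7.24 CPM (median 5.46) in ac-CYB5R3–KO hearts, which overlapped. Its log2 fold change was -0.61 (SE 0.20, unadjusted p = 0.00749, edgeR adjusted p = 0.204), with an unadjusted p of 0.0162 without ac-WT mice 2 and 3, of 0.160 with total counts and of up to 0.0232 when a mouse was left out. Across hearts Nfil3 ran against Dbp (r -0.67, at -0.77 in ac-WT and -0.50 in ac-CYB5R3–KO hearts).

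The partners of the PER proteins, Cry1 and Cry2, had close means in the groups. Cry1 was at 3.30 ± 0.594 CPM in ac-WT and 3.36 ± 0.504 CPM in ac-CYB5R3–KO hearts, with a log2 fold change of 0.03 (95% interval -0.29 to 0.35). Cry2 was at 7.61 ± 1.52 and 7.63 ± 1.42 CPM, with a log2 fold change of 0.01 (95% interval -0.32 to 0.33). Npas2, a paralog of Clock, was at 3.35 ± 1.72 and 2.47 ± 0.790 CPM (log2 fold change -0.43, 95% interval -1.16 to 0.30) and had an r of 0.55 with Arntl, 0.38 in ac-WT and 0.94 in ac-CYB5R3–KO hearts. Arntl2, the paralog of Arntl, was at 1.33 ± 0.533 and 1.51 ± 0.547 CPM and had an r of -0.58 with Arntl.

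Rora and Rorb encode activators that use the same sites as NR1D1 and NR1D2. Rora had a log2 fold change of 0.30 (95% interval -0.0030 to 0.59, unadjusted p = 0.0520). Rorb was low, at 3 to 72 reads per heart. It averaged 0.245 ± 0.0959 CPM in ac-WT and 0.536 ± 0.396 CPM in ac-CYB5R3–KO hearts (unadjusted p = 0.0358, edgeR adjusted p = 0.304). The edgeR unadjusted p was 0.0835 with the replicate block, 0.0909 without ac-WT mice 2 and 3 and 0.136 without ac-CYB5R3–KO mouse 2. The E-box repressors Bhlhe40 and Bhlhe41 had log2 fold changes of 0.19 and 0.42, the D-box factor Hlf of -0.33 (positive with total counts) and Timeless of 0.08, with edgeR adjusted p from 0.471 to 0.854.

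The kinases and ubiquitin ligases that set the turnover of PER and CRY were read as a further list. Their summed level was 278.8 to 303.1 CPM in ac-WT and 278.3 to 311.3 CPM in ac-CYB5R3–KO hearts. Within it Fbxl21, at 4 to 36 reads per heart, differed 4.25-fold between the highest and lowest ac-WT heart. Of 10 genes, 3 were below 0 and 7 above in log2 fold change (0 and 10 with total counts). By edgeR 0 passed an unadjusted p under 0.01 (4.59% of all tested genes) and 3 an unadjusted p under 0.05 (14.6%), and DESeq2 called 0. Without ac-WT mice 2 and 3 the count at 0.05 was 0. At 0.01 Fbxl21 passed without ac-WT mouse 4 and Fbxw11 without ac-WT mouse 6. The smallest p values belonged to Fbxl21 (log2 fold change 0.87), Gsk3b (0.21), Fbxw11 (0.27) and Csnk2b (-0.24, which was 0.07 with total counts), with edgeR adjusted p from 0.270 to 0.380.

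Genes known as outputs of the clock in heart or liver were read from a list of 10. Of these 8 had a log2 fold change below 0 (6 with total counts), against 9139 of all 17847 tested genes with TMM factors. By edgeR 4 of the 10 passed an unadjusted p under 0.05 (14.6% of all tested genes) and 1 an unadjusted p under 0.01 (4.59%). Without ac-WT mice 2 and 3 these counts were 1 and 0. The gene under 0.01 was Dgat2, an enzyme of triglyceride synthesis. It ran from 29.2 to 133 CPM (median 51.6) in ac-WT and from 15.2 to 39.7 CPM (median 23.5) in ac-CYB5R3–KO hearts. The log2 fold change of Dgat2 was -1.23 (SE 0.35, unadjusted p = 0.00355, edgeR adjusted p = 0.184, DESeq2 adjusted p = 0.0316) and -0.65 (unadjusted p = 0.0341) without ac-WT mice 2 and 3. Across hearts Dgat2 showed little relation to the loop, with an r of 0.03 with Arntl and -0.07 with Dbp.

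Kcnip2, a subunit of the transient outward potassium channel, had a log2 fold change of -1.17, Ucp3, a mitochondrial carrier, of -1.92 and Usp2, a deubiquitinase, of -0.61, at unadjusted p of 0.0210, 0.0230 and 0.0231 (edgeR adjusted p from 0.261 to 0.267). Without ac-WT mice 2 and 3 these were -0.43, -0.82 and -0.17, at unadjusted p from 0.243 to 0.286. With the replicate block Ucp3 had an edgeR unadjusted p of 0.00362. Tspan4, a further gene of the list, had an r of 0.58 with Dbp and -0.52 with Arntl.

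Genes induced by glucocorticoids, which also set the phase of clocks outside the brain, were read from a list of 9. Of these 8 had a log2 fold change below 0, against 9139 of all 17847 tested genes (3 of the 9 with total counts). By edgeR 1 passed an unadjusted p under 0.01, which 4.59% of all tested genes passed. This was Sgk1, a kinase that regulates sodium channels, at 108 ± 33.2 CPM in ac-WT and 62.5 ± 15.7 CPM in ac-CYB5R3–KO hearts (log2 fold change -0.78, SE 0.23, unadjusted p = 0.00420, edgeR adjusted p = 0.188, DESeq2 adjusted p = 0.0465). Without ac-WT mice 2 and 3 its unadjusted p was 0.0257, with total counts 0.0629 and at most 0.0123 when a mouse was left out. The next smallest p values were those of Mt1 (log2 fold change -0.51), Zbtb16 (-0.64) and Klf9 (-0.15, which turned positive with total counts). With the replicate block Mt1 had an edgeR unadjusted p of 0.00106.

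Of 7 temperature-responsive genes, which follow body temperature over the day, 5 had a log2 fold change below 0 (2 with total counts). By edgeR 0 passed an unadjusted p under 0.01 or 0.05, and DESeq2 called 0. Hsp90aa1, a heat shock protein, reached an unadjusted p of 0.00597 without ac-WT mice 2 and 3, 0.0106 with total counts and 0.0468 with the replicate block. The smallest p values were those of Hsp90aa1 (log2 fold change 0.29), Hspa1b (-0.77), Dnajb1 (-0.31) and Hspa8 (-0.20, which turned positive with total counts), with edgeR adjusted p from 0.381 to 0.661.

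Marker genes of the cell types a whole heart can hold also differed between hearts, and their part in the values of the clock genes was not tested. Of 8 cardiomyocyte markers 6 had a log2 fold change below 0, against 9139 of all 17847 tested genes (3 of the 8 with total counts). Tnni3 (-1.01) and Myl2 (-1.22) passed an unadjusted p under 0.01, which 4.59% of all tested genes passed. Their edgeR adjusted p was 0.184 for each, and their DESeq2 adjusted p 0.0276 and 0.0228. With the replicate block Myl2 had an edgeR unadjusted p of 0.0122. Without ac-WT mice 2 and 3 Tnni3 was at -0.46 and Myl2 at -0.50, both still under 0.01. The summed level of these 8 was 19586 to 44741 CPM in ac-WT and 14477 to 25150.3 CPM in ac-CYB5R3–KO hearts. Of 4 smooth muscle markers 2 were below 0 and 2 above, the latter Cnn1 (1.04, edgeR unadjusted p = 0.0262) and Tagln (0.18). Acta2 (-0.89) and Myh11 (-0.93) passed an edgeR unadjusted p under 0.01, though 0 did with total counts. Their DESeq2 adjusted p was 0.00589 and 0.0401. Without ac-WT mice 2 and 3 they were at -0.78 and -0.36, where Myh11 had an unadjusted p of 0.0136. The 4 markers summed to 75.4 to 187 CPM in ac-WT against 76.9 to 138 CPM in ac-CYB5R3–KO hearts. The 5 red blood cell markers had log2 fold changes from 1.61 to 1.75 (all 5 at an unadjusted p under 0.05, 0 under 0.01). All 5 passed 0.01 with total counts (2.16 to 2.30) and without ac-WT mice 2 and 3 (2.36 to 2.45), and 0 passed 0.05 without ac-CYB5R3–KO mouse 3. Their sum was 425 to 8206 CPM in ac-WT against 2537 to 24768 CPM in ac-CYB5R3–KO hearts.

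Of the cartilage and airway markers Comp (2.17) and Col2a1 (2.34) passed an edgeR unadjusted p under 0.01 (1.71 and 2.01 without ac-WT mice 2 and 3). Their DESeq2 adjusted p was 0.00115 and 0.0163. Scgb1a1 and Sftpc had at most 2 counts in any heart. The 4 fat markers had at most 17 counts and were not tested, and the atrial marker Sln had at most 2. By edgeR the atrial marker Myl7 had an unadjusted p of 0.0134, of 0.00226 with the replicate block and of 0.0673 without ac-WT mice 2 and 3. With all hearts and no block, Myl7 alone passed 0.05 and none passed 0.01 among the 3 tested atrial, 4 endothelial, 4 fibroblast and 4 immune markers. Their sums ran from 412 to 967 against 443 to 1627 CPM for atrial, 235 to 539 against 250 to 433 CPM for endothelial, 668 to 2218 against 1271 to 1986 CPM for fibroblast and 26.4 to 119 against 47.1 to 92.6 CPM for immune markers.

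The genes whose levels across hearts were most like those of Arntl were named by the Pearson r of deviations from group means over 12 hearts, among 14433 genes with a mean of at least 1 CPM. The highest were Akap12 (r 0.91), Sec24a (0.90), E130203B14Rik (0.86), Sash1 (0.86) and Anp32a (0.86), all above every ranked gene of the loop factor and output lists. Clock, a member, had an r of 0.85 with Arntl. The lowest were Plekho1 (-0.88), Gm13181 (-0.86), Mfsd11 (-0.83), Gm5239 (-0.83) and Psph (-0.82). Among the members left out, Per2 was at -0.87 with Arntl. For Dbp the highest were Zdhhc23 (0.84), 4930578N16Rik (0.83), D19Ertd386e (0.79), Fgd2 (0.78) and Cd2bp2 (0.75). The lowest with Dbp were Akap12 (-0.87), Lrrc8d (-0.82), D10Wsu102e (-0.81), Tada2b (-0.80) and Sec24a (-0.80). Among the members left out, Nr1d2 was at 0.87, Per2 at 0.86 and Ciart at 0.83 with Dbp, and Arntl and Clock at -0.81. Akap12, a scaffold for protein kinase A, and Sec24a, a COPII coat protein, were thus found on both lists, with opposite signs. With 12 hearts and 14433 genes, values of this size are a description and carry no test.

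The hour at which each heart was collected is not given in the sources used here. Its part in the opposite levels of Arntl and Dbp between hearts was not tested.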

How the data were processed

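The authors sequenced total RNA (stranded kit, 75 bp unpaired reads) and deposited raw counts, whole numbers of reads for each Ensembl gene, neither normalized nor filtered. The paper's methods name fastq-mcf, Trimmomatic, STAR on mm9 and FPKM from Cufflinks, whereas the submitters' processing notes name STAR, featureCounts and GRCm39. Versions, annotation and strand setting of the counts are not given in the sources used here. Symbols were matched for 31027 of 53700 identifiers. Gene positions are on NCBIM37 (mm9, GENCODE M1) and promoters on GRCm38.p6, which are not interchangeable.

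Counts were filtered by filterByExpr (minimum count 10), TMM-scaled and tested by quasi-likelihood in edgeR (4.0.16, R 4.3.3), two-sided and Benjamini-Hochberg adjusted over 17847 genes. Single members were also compared by an exact permutation test over 924 placements (smallest p 0.00216), and correlations by 100000 permutations of hearts within groups. Alternatives were RLE factors, total counts, no filter, DESeq2 (1.42.0), a replicate block and fewer hearts. Total-count correlations without ac-WT mice 2 and 3 were added after seeing the data. The tests were checked on simulated counts. Each library came from a separate mouse, and reads carried no molecular identifiers, although at 38 or more reads per member and heart the spread between mice limits the precision.

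Members and gene lists were chosen with earlier results of these data known. Named genes were the members, Cyb5r3, the 11 other loop factors of the list and the 4 smallest p values of each further list. Also named were markers with an unadjusted p under 0.01 and the 5 genes, members left out, most and least correlated with Arntl and Dbp. A further gene is not reported here. Some further list and marker genes (Tspan4, Myl7 and the like) were named after their values were seen.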

Additional observations from a re-analysis of the deposited data

How the results depend on the processing

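The count of clock genes past an adjusted p under 0.05 or an unadjusted p under 0.01 was 0 under every alternative run, and their adjusted p was 0.248 or more. Counts over all genes moved. At an adjusted p under 0.05 there were 18 genes, against 8 with RLE factors, 8 with total counts, 35 with no filter, 437 with DESeq2, 7 without ac-WT mice 2 and 3 and 2 to 38 when each mouse was left out in turn. At an unadjusted p under 0.01 there were 820, against 426 with total counts, 1238 with DESeq2, 426 without ac-WT mice 2 and 3 and 463 to 1169 when a mouse was left out. Of these, 71.1% were lower in ac-CYB5R3–KO hearts, against 33.1% with total counts. Over the loop factors, kinases and ligases and outputs, 2 genes passed an unadjusted p under 0.01, against 1 with total counts, 0 without ac-WT mice 2 and 3 and 1 to 5 when a mouse was left out.

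The median log2 fold change of the members was -0.06, against 0.20 with total counts, where that of all genes was 0.26, and -0.15 to 0.03 when a mouse was left out. With total counts Per2 (0.10), Tef (0.14), Nr1d2 (0.25) and Arntl (0.13) changed sign, all below the shift of all genes. Without ac-WT mice 2 and 3 Tef (0.090) and Nr1d2 (0.048) did. Leaving out a mouse turned Per3 (-0.17 to 0.39), Nr1d2 (-0.13 to 0.084) and Arntl (-0.22 to 0.14). The number of 45 pairs with an r of 0.7 or more in size was 21, and 16 to 26 under the alternatives.

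The replicate numbers come from the labels and mark different animals. Deviations of hearts with the same number had a mean r of 0.13 (-0.16 to 0.36), against -0.03 for other numbers. Because only 4 of 6 pairs were over 0.1, the hearts were not treated as paired, although 6 of 12 hearts correlated best with their own number, a hint from the data and not from the design. With the replicate block 2 genes passed an adjusted p under 0.05, and 0 clock genes did.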
